A study of Caenorhabditis elegans with 3 samples.

Results

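Knockdown of drsh-1, the Caenorhabditis elegans Drosha gene, was compared with mock feeding across every gene of 1 deposited FPKM table, 9996 genes of the 10168 listed in the series. FPKM counts sequenced fragments relative to transcript length in kilobases and to the number of fragments mapped in a library. All animals were young adults of a fem-1 strain, were given RNAi by feeding and are labelled 2.5 d. The drsh-1 RNAi group, the dcr-1 RNAi group (Dicer, used here only for side-by-side values) and the mock group each had 1 library of polyA RNA. The fem-1 allele, the bacteria fed to the mock animals and the number of animals per library are not stated in the labels. Sterile fem-1 animals were chosen because loss of dcr-1 itself causes sterility, per the labels. With 1 library per group no difference has a replicate check, so sizes are described and nothing was tested.

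Drosha is the nuclear RNase III enzyme that, with its RNA-binding partner Pasha (pash-1), cuts hairpins out of long primary transcripts. Dicer then trims the released precursors to mature microRNAs, which Argonaute proteins (alg-1 and alg-2) use to repress messenger RNAs, mostly through sites in 3′ UTRs. In worms this pathway is best known for timing larval development through lin-4 and let-7 and for embryonic survival. Feeding bacteria that make double-stranded RNA lowers a target transcript in part. XX animals that lack fem-1 function make oocytes and no sperm, so their oocytes are not self-fertilised.

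drsh-1 itself was at 20.9 FPKM in drsh-1 RNAi and 32.0 FPKM in mock (log2 ratio -0.59), which leaves 65.4% of the mock level. The mock value of drsh-1 differs between the 2 deposited tables, and against the 26.2 FPKM that the dcr-1 table gives, 79.9% was left (-0.31). Here and below a log2 ratio is that of (FPKM + 1) in the RNAi library over (FPKM + 1) in mock, a scale that understates the change of low genes. The ratio of drsh-1 was the 514th lowest of the table. Among the 3637 genes whose mock level lay within 2-fold of that of drsh-1, 157 genes (4.32%) had a ratio as low or lower. The targeted transcript was thus lower in the library that carries its name, by an amount that many untargeted genes of the same level reached. fem-1 was at 38.3 FPKM in drsh-1 RNAi and 38.8 FPKM in mock. Of 10 defining sperm markers, such as spe-9, spe-11 and gsp-3, 0 were listed in the table, whereas all 7 germ line markers and all 9 oocyte markers were. The germ line markers had log2 ratios of -0.18 to 0.36 and the oocyte markers of -0.21 to 0.27.

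Most genes were close to mock. The middle 90% of log2 ratios ran from -0.60 to 0.62, the median was 0.00, and 89.4% of genes were within 1.5-fold. In drsh-1 RNAi 191 genes (1.91%) were higher by 2-fold or more and 159 genes (1.59%) were lower by as much. Above mock by any amount were 5040 genes (50.4%), and below it 4955 genes (49.6%). The counts of list members below are to be read against these shares. The part above mock varied with level. At a mean of 100 to 500 FPKM 796 of 1280 genes were above mock, with a median log2 ratio of 0.05. At 500 FPKM or more 126 of 172 genes were above mock, with a median of 0.11. At 20 to 50 FPKM 1094 of 2421 genes were above mock, with a median of -0.03. Lists of highly expressed genes are to be read against the counts at their level. Past 4-fold were 20 genes on the higher side and 24 on the lower. The higher genes had a median of 18.3 FPKM in drsh-1 RNAi and 5.81 FPKM in mock, and the lower genes had a median of 5.48 FPKM in drsh-1 RNAi and 19.3 FPKM in mock. The table starts at 2 FPKM in either library, so a gene silent in one of them is missing. Of the higher genes 62 were under 4 FPKM in mock, and of the lower genes 61 were under 4 FPKM in drsh-1 RNAi, close to that limit. Both counts depend on the added 1 FPKM, as 99 genes were higher and 89 lower with 5 FPKM added. Scaling both libraries to a common sum, an alternative chosen after seeing the data, gave 160 higher and 181 lower genes, so which side holds more genes is not settled by these files.

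**Figure D1:**
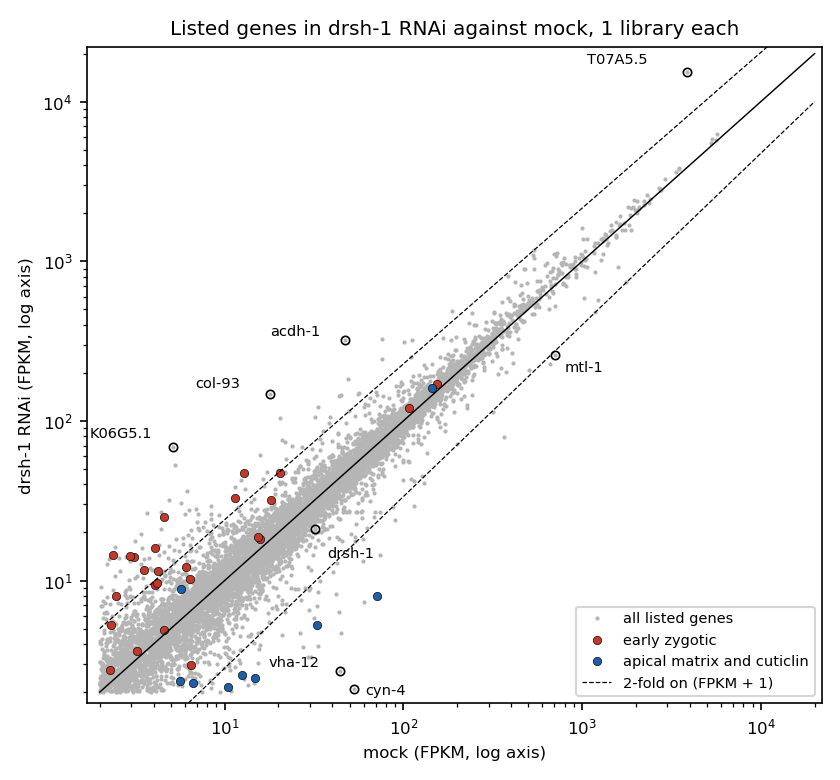
FPKM in drsh-1 RNAi (vertical, log axis) against mock (horizontal, log axis) for the 9996 listed genes, 1 library each, with the diagonal at equal levels and dashed lines at 2-fold on the (FPKM + 1) scale. Of the early zygotic genes (red) 24 of 25 lie above the diagonal, 7 of the 9 apical matrix and cuticlin genes (blue) lie below it, and 8 single genes named in the text are circled. Both lists were chosen with earlier results of these data known.

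The factors that make and use microRNAs were near mock. Of 29 listed processing and silencing factors 13 were above mock, 16 below and 0 at least 2-fold apart, with a median log2 ratio of -0.01. pash-1 was at 44.4 FPKM in drsh-1 RNAi and 36.6 FPKM in mock (0.27). dcr-1 was at 33.2 FPKM in drsh-1 RNAi and 36.8 FPKM in mock (-0.14). The 2 microRNA Argonaute genes lay on opposite sides, alg-1 at 7.90 FPKM in drsh-1 RNAi and 9.96 FPKM in mock (-0.30) and alg-2 at 30.9 FPKM in drsh-1 RNAi and 24.4 FPKM in mock (0.33). The factor with the lowest ratio was xrn-1, a 5′ to 3′ exonuclease, at 6.24 FPKM in drsh-1 RNAi and 9.95 FPKM in mock (-0.60). Its ratio was about the same as that of drsh-1, and no other factor of the list was as low. The 49 factors of the siRNA and piRNA pathways had a median of 0.03 with 0 at least 2-fold apart, and their farthest members were the Argonaute gene ppw-1 (0.44) and prg-2 (0.38), a Piwi gene. ppw-1 is another gene with unequal mock values, and its ratio was 0.87 against the mock value of the dcr-1 table.

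Among genes reported as microRNA targets or heterochronic regulators, the count above mock depended on the mock value used. Of 28 listed, 8 were above mock and 20 below, with a median of -0.08, 0 higher and 2 lower by at least 2-fold. For 7 of them the dcr-1 table gives another mock value, and with those values 13 were above mock and 15 below, with a median of -0.02, 1 higher and 2 lower by at least 2-fold. lin-14, the lin-4 target that sets first-stage larval fates, was at 2.057 FPKM in drsh-1 RNAi and 4.50 FPKM in mock (-0.85). Both values are near the limit of the table. lin-28, which encodes an RNA-binding heterochronic regulator, was at 51.4 FPKM in drsh-1 RNAi and 64.5 FPKM in mock (-0.32). lin-41, a let-7 target that also acts in oocytes, was at 58.2 FPKM in drsh-1 RNAi and 64.4 FPKM in mock (-0.14). Its mock value in the dcr-1 table is 36.0 FPKM, against which its ratio was 0.68, so its side of mock is not settled. The 2 genes past 2-fold were cki-1, a cyclin-dependent kinase inhibitor, at 6.25 FPKM in drsh-1 RNAi and 17.5 FPKM in mock (-1.35), and tir-1, an innate immune adaptor, at 17.0 FPKM in drsh-1 RNAi and 35.2 FPKM in mock (-1.01). The highest ratio to the mock value of this table was that of cdk-1 (0.44). The list holds targets from many tissues and stages, and levels of the microRNAs themselves were not analysed here.

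Genes that hold a microRNA within their span showed no common direction. Of 43 listed genes whose annotated span holds a microRNA on the same strand, 24 were above mock and 19 below, with a median of 0.06. The span includes introns, so these FPKM values need not measure the primary transcript that Drosha cuts. pmp-5, the gene around mir-70, was at 11.3 FPKM in drsh-1 RNAi and 4.92 FPKM in mock (1.05). W03G11.4, around mir-233, was at 3.70 FPKM in drsh-1 RNAi and 10.5 FPKM in mock (-1.29). These were the 2 host genes past 2-fold. ppfr-1, around mir-2 and mir-71, was at 28.4 FPKM in drsh-1 RNAi and 27.6 FPKM in mock (17.7 FPKM in the dcr-1 table), and kup-1, around mir-87, was at 122 FPKM in drsh-1 RNAi and 139 FPKM in mock. pash-1, listed above, holds mir-1828 within its span. Of 15 listed noncoding transcripts 13 were below mock and 2 above, with a median of -0.49 and 0 at least 2-fold apart. tts-1, a long noncoding RNA, was at 915 FPKM in drsh-1 RNAi and 1597 FPKM in mock (-0.80). rncs-1, described as an inhibitor of Dicer, was at 18.8 FPKM in drsh-1 RNAi and 30.8 FPKM in mock (-0.68), and lep-5, which acts in the heterochronic pathway, was at 72.4 FPKM in drsh-1 RNAi and 99.9 FPKM in mock (-0.46).

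Genes listed as early zygotic (transcribed in the early embryo) stood on the higher side. Of 62 early zygotic genes sought 25 were listed, and 24 of these were above mock, 13 were higher and 0 lower by at least 2-fold, the count of higher ones being 8 with 5 FPKM added. This list, like the others, was chosen with earlier results of these data known, so its counts can follow in part from that choice. Their median level was 13.96 FPKM in drsh-1 RNAi and 4.58 FPKM in mock, with a median log2 ratio of 1.03. vet-6, a very early transcript gene, was at 24.96 FPKM in drsh-1 RNAi, 8.61 in dcr-1 RNAi and 4.60 in mock (2.21 for drsh-1 RNAi). tbx-38, a T-box factor of early blastomeres, was at 14.4 FPKM in drsh-1 RNAi, 2.84 in dcr-1 RNAi and 2.38 in mock (2.19). Its near-identical partner tbx-37 was at 8.05 FPKM in drsh-1 RNAi, 2.52 in dcr-1 RNAi and 2.46 in mock (1.39), and reads of this pair can be shared. For both T-box genes the dcr-1 RNAi library was close to mock and the drsh-1 RNAi library was not.

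Other genes named for their transcription in early embryos were highest in drsh-1 RNAi too. pes-10 was at 14.3 FPKM in drsh-1 RNAi, 5.07 in dcr-1 RNAi and 2.96 in mock (1.95). vet-1 was at 46.9 FPKM in drsh-1 RNAi, 19.6 in dcr-1 RNAi and 12.8 in mock (1.798), and vet-2 was at 32.7 FPKM in drsh-1 RNAi, 16.6 in dcr-1 RNAi and 11.5 in mock (1.43). All 15 listed sdz genes, zygotic genes that depend on the maternal factor SKN-1, were above mock and 7 past 2-fold, the highest being sdz-7 at 13.96 FPKM in drsh-1 RNAi, 7.31 in dcr-1 RNAi and 3.11 in mock (1.86). sdz-6 had another order, with 9.60 FPKM in drsh-1 RNAi, 39.5 in dcr-1 RNAi and 4.16 in mock. The 1 early zygotic gene below mock was elt-1, the GATA factor that specifies epidermis, at 2.97 FPKM in drsh-1 RNAi and 6.47 FPKM in mock (-0.91). nos-2 and sdz-27, which had the highest levels of the list, were at 170 and 120 FPKM in drsh-1 RNAi and at 155 and 107 FPKM in mock. The list was not checked for members, such as nos-2, whose RNA can also be made in oocytes. The mock library is common to both RNAi comparisons, so the values are set side by side and no agreement between them is reported. The median log2 ratio of the list in dcr-1 RNAi was -0.10 over the 21 members with a value there, and in drsh-1 RNAi the same 21 had a median of 1.17.

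Of 12 early embryo markers 7 were listed, with end-1, end-3, med-1, med-2 and sdz-23 not listed. All 7 are among the 13 early zygotic genes already counted as at least 2-fold higher, so they repeat that result. The summed level of these 7 was 189 FPKM in drsh-1 RNAi and 57.1 FPKM in mock. Maternal transcripts made in oocytes were nearer to mock. Of 42 listed oocyte, eggshell and maternal RNA regulator genes 29 were above mock and 0 at least 2-fold apart, with a median of 0.08. spn-4, a maternal RNA-binding translation regulator, had the largest ratio of these at 561 FPKM in drsh-1 RNAi, 83.4 in dcr-1 RNAi and 393 in mock (0.51), followed by the Y-box gene cey-2 (0.36). Of 41 germ line and meiosis genes 19 were above mock and 0 at least 2-fold apart, the farthest being the checkpoint kinase gene chk-2 (0.59) and lst-1 (0.54), a stem cell gene. The 11 listed sperm genes were low, with medians of 4.16 FPKM in drsh-1 RNAi and 4.40 FPKM in mock and 0 at least 2-fold apart. ssp-10 (-0.79) and spe-6 (-0.51) were the farthest. In whole animals a change in the number of embryos or cells of a type and a change in RNA per cell cannot be told apart.

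**Figure D2:**
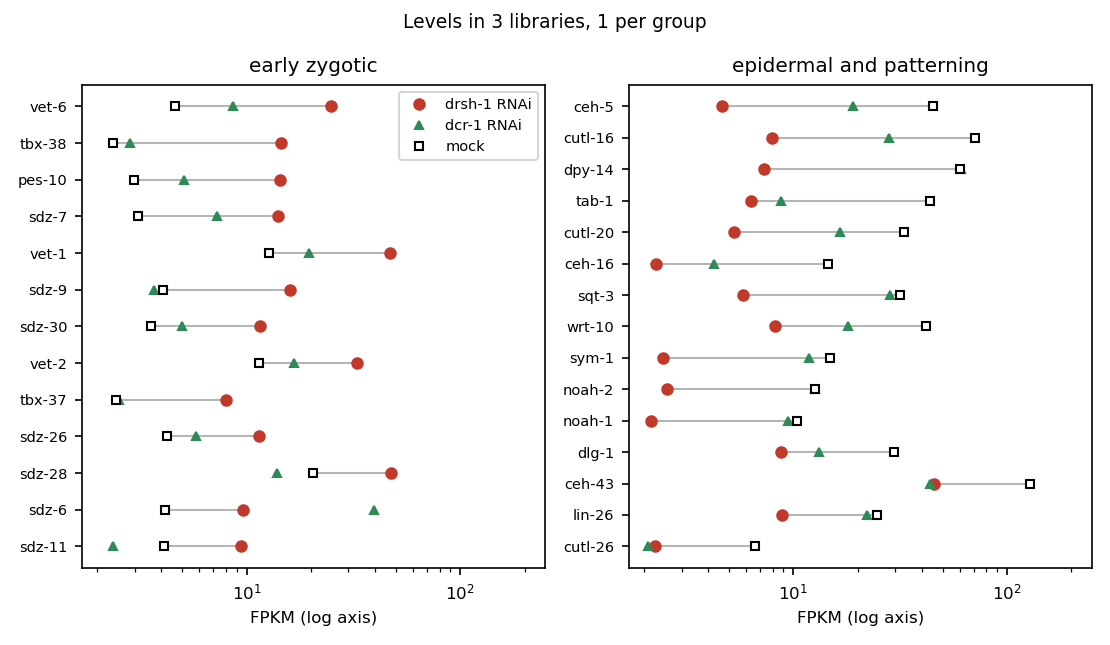
FPKM (log axes) in drsh-1 RNAi, dcr-1 RNAi and mock, 1 library each, for the 13 early zygotic genes at least 2-fold higher in drsh-1 RNAi (left) and the 15 epidermal matrix, junction, collagen, hedgehog-related and homeobox genes at least 2-fold lower (right), with grey lines joining drsh-1 RNAi to mock. The left genes run from 8.05 to 47.3 FPKM in drsh-1 RNAi and from 2.38 to 20.5 FPKM in mock, the right genes from 2.16 to 45.4 FPKM in drsh-1 RNAi and from 6.65 to 128 FPKM in mock. Only lower members are drawn on the right. The same lists hold 10 collagens and 1 hedgehog-related gene at least 2-fold higher, which are not drawn.

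Several genes of the embryonic and larval epidermal surface stood on the lower side. Of 9 listed apical matrix and cuticlin genes 2 were above mock, 7 below and 6 at least 2-fold lower, with a median log2 ratio of -1.86, and 2 more, let-653 and lpr-3, have a value in the dcr-1 table alone, where a gene under the limit of the drsh-1 table can still appear. This list was drawn up with the lowest genes of the table known, so its median and lower count follow in part from that choice. cutl-16, a cuticlin-like gene listed as K06A1.3, was at 7.95 FPKM in drsh-1 RNAi, 28.02 in dcr-1 RNAi and 71.0 in mock (-3.01). cutl-20, listed as F54A5.2, was at 5.28 FPKM in drsh-1 RNAi, 16.6 in dcr-1 RNAi and 32.9 in mock (-2.43). noah-1 and noah-2, zona pellucida domain proteins of the matrix over embryonic epidermis, were close to mock in dcr-1 RNAi and not in drsh-1 RNAi. noah-2 was at 2.56 FPKM in drsh-1 RNAi, 12.6 in dcr-1 RNAi and 12.6 in mock (-1.93), and noah-1 was at 2.16 FPKM in drsh-1 RNAi, 9.49 in dcr-1 RNAi and 10.4 in mock (-1.86). sym-1, a secreted leucine-rich repeat protein of the embryo, was at 2.45 FPKM in drsh-1 RNAi, 11.9 in dcr-1 RNAi and 14.9 in mock (-2.20). The 2 members above mock were egg-6 (0.16) and cutl-10 (0.55).

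Collagen genes were split. Of 42 listed 35 were above mock, 10 higher and 2 lower by at least 2-fold, with a median of 0.50, and 6 further collagens have a value in the dcr-1 table alone. The 2 lower ones act in the embryo and early larva. dpy-14 was at 7.30 FPKM in drsh-1 RNAi, 60.8 in dcr-1 RNAi and 60.4 in mock (-2.89). sqt-3 was at 5.85 FPKM in drsh-1 RNAi, 28.2 in dcr-1 RNAi and 31.5 in mock (-2.25). The higher ones were led by col-93 at 147 FPKM in drsh-1 RNAi, 2043 in dcr-1 RNAi and 18.0 in mock (2.96), and by col-160 at 183 FPKM in drsh-1 RNAi, 1058 in dcr-1 RNAi and 48.9 in mock (1.88). In level the largest collagen gain was that of col-101, at 1185 FPKM in drsh-1 RNAi and 536 FPKM in mock (1.14), followed by col-143 at 813 FPKM in drsh-1 RNAi and 384 FPKM in mock (1.08). Collagen genes resemble each other closely, so single values are uncertain. Hypodermis markers were near mock, 4 of 6 being listed with log2 ratios of -0.09 to 0.44.

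Epithelial junction and polarity genes had a median of -0.14, with 8 of 28 above mock, 20 below and 2 at least 2-fold lower. dlg-1, the Discs large scaffold of the apical junction, was at 8.76 FPKM in drsh-1 RNAi, 13.1 in dcr-1 RNAi and 29.6 in mock (-1.65). lin-26, a zinc finger factor needed for epidermal fate, was at 8.90 FPKM in drsh-1 RNAi, 22.1 in dcr-1 RNAi and 24.8 in mock (-1.38). Hedgehog-related genes went both ways around a median of 0.60 over 9 genes. wrt-10 was at 8.20 FPKM in drsh-1 RNAi, 18.1 in dcr-1 RNAi and 41.7 in mock (-2.21), and grd-3 was at 145 FPKM in drsh-1 RNAi, 172 in dcr-1 RNAi and 71.1 in mock (1.02). The 12 patched-related genes, a family related to hedgehog receptors, had a median of 0.09 with 0 at least 2-fold apart, ptr-8 (0.67) and ptr-14 (0.52) being the farthest.

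Among homeobox and bZIP transcription factors, the medians were near mock and a few members were far below it. Of 40 listed homeobox genes 17 were above mock and 4 at least 2-fold lower. ceh-5 was at 4.66 FPKM in drsh-1 RNAi, 18.97 in dcr-1 RNAi and 45.04 in mock (-3.02). tab-1 was at 6.35 FPKM in drsh-1 RNAi, 8.74 in dcr-1 RNAi and 43.5 in mock (-2.60). ceh-16, the engrailed homologue of the lateral epidermis, was at 2.27 FPKM in drsh-1 RNAi, 4.27 in dcr-1 RNAi and 14.6 in mock (-2.25), and ceh-43, the Distal-less homologue, was at 45.4 FPKM in drsh-1 RNAi, 43.8 in dcr-1 RNAi and 128 in mock (-1.47). All 4 were lower in drsh-1 RNAi, and ceh-43 had the highest level of the list members past 2-fold. Of 23 bZIP factors 12 were above mock, 1 at least 2-fold higher and 3 lower. ces-2, which controls the death of a neuronal sister cell, was at 3.30 FPKM in drsh-1 RNAi, 22.5 in dcr-1 RNAi and 30.4 in mock (-2.87). zip-7 (-1.53) and zip-8 (-1.31) were the other lower ones. zip-8 was at 43.5 FPKM in drsh-1 RNAi, and its mock value is 109.6 FPKM here but 67.6 FPKM in the dcr-1 table, against which its ratio was -0.63 and under 2-fold. On the higher side zip-10 was at 13.8 FPKM in drsh-1 RNAi and 4.81 FPKM in mock (1.35). hmg-6, listed as F47G4.6, an HMG box gene, was at 3.88 FPKM in drsh-1 RNAi and 33.3 FPKM in mock (-2.81). On the higher side aptf-4, listed as F28C6.1, of the AP-2 factor family, was at 30.5 FPKM in drsh-1 RNAi, 6.59 in dcr-1 RNAi and 5.72 in mock (2.23).

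Parts of the ubiquitin ligase machinery differed by family. F-box proteins bring substrates to Skp1-cullin ligases, and worms have expanded both the F-box and the Skp1-related (skr) families. Of 104 annotated fbxb genes 66 were listed, with 49 above mock, 16 at least 2-fold higher and 4 lower, and a median of 0.43. Of 170 annotated fbxa genes 62 were listed, with 36 above mock, 0 at least 2-fold apart and a median of 0.04. The fbxc family (21 listed) had 1 gene at least 2-fold higher and 1 lower, bath (29 listed) 1 and 1, math (16 listed) 0 and 0, and btb (15 listed) 3 and 0. fbxb-103 was at 28.1 FPKM in drsh-1 RNAi, 7.59 in dcr-1 RNAi and 6.89 in mock (1.88), and fbxb-92 was at 13.8 FPKM in drsh-1 RNAi, 3.78 in dcr-1 RNAi and 3.77 in mock (1.63). bath-31 was at 16.1 FPKM in drsh-1 RNAi, 5.87 in dcr-1 RNAi and 3.45 in mock (1.94). On the lower side bath-10 was at 7.12 FPKM in drsh-1 RNAi, 7.22 in dcr-1 RNAi and 22.1 in mock (-1.51), and fbxb-66 was at 18.7 FPKM in drsh-1 RNAi, 18.5 in dcr-1 RNAi and 53.5 in mock (-1.47). Median levels of the fbxb genes were 6.10 FPKM in drsh-1 RNAi and 4.17 FPKM in mock, and members share sequence.

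Of 17 listed skr genes 11 were above mock, 5 at least 2-fold higher and 1 lower, with a median of 0.27. skr-10 was at 122 FPKM in drsh-1 RNAi, 58.4 in dcr-1 RNAi and 33.4 in mock (1.83). skr-9 was at 75.8 FPKM in drsh-1 RNAi, 30.8 in dcr-1 RNAi and 20.8 in mock (1.81), and reads of these 2 closely related genes can be shared. skr-7 (1.19), skr-13 (1.14) and skr-15 (1.08) were the other higher ones. skr-21 was at 25.2 FPKM in drsh-1 RNAi, 23.8 in dcr-1 RNAi and 68.7 in mock (-1.41). The 33 proteasome subunits had a median of 0.06 and 0 at least 2-fold apart, pas-6 (-0.40) and rpn-6.2 (0.35) being the farthest.

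Single subunits or family members stood apart while the rest of the same complex did not. cyn-4, a cyclophilin gene, had the lowest ratio of the table at 2.08 FPKM in drsh-1 RNAi, 83.9 in dcr-1 RNAi and 53.3 in mock (-4.14). The other 12 cyclophilins ranged from -0.25 to 0.81. vha-12, which encodes a B subunit of the vacuolar proton pump, was at 2.71 FPKM in drsh-1 RNAi, 7.09 in dcr-1 RNAi and 44.0 in mock (-3.60). The other 20 subunits of this pump ranged from -0.26 to 0.73, with 18 above mock, and the 7 others of its catalytic V1 part had a median of 0.23. atp-5, a subunit of the mitochondrial ATP synthase, was at 36.2 FPKM in drsh-1 RNAi, 46.3 in dcr-1 RNAi and 6.14 in mock (2.38). The other 11 synthase subunits ranged from -0.10 to 0.39, and their levels in mock, with a median of 317 FPKM, were far above that of atp-5. cdc-48.1, an AAA ATPase that unfolds ubiquitinated proteins, was at 17.8 FPKM in drsh-1 RNAi and 3.14 FPKM in mock (2.18). Its paralog cdc-48.2, looked up after this value was seen, was at 4.51 FPKM in drsh-1 RNAi and 13.5 FPKM in mock (-1.40), and reads of the pair can be shared.

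**Figure D3:**
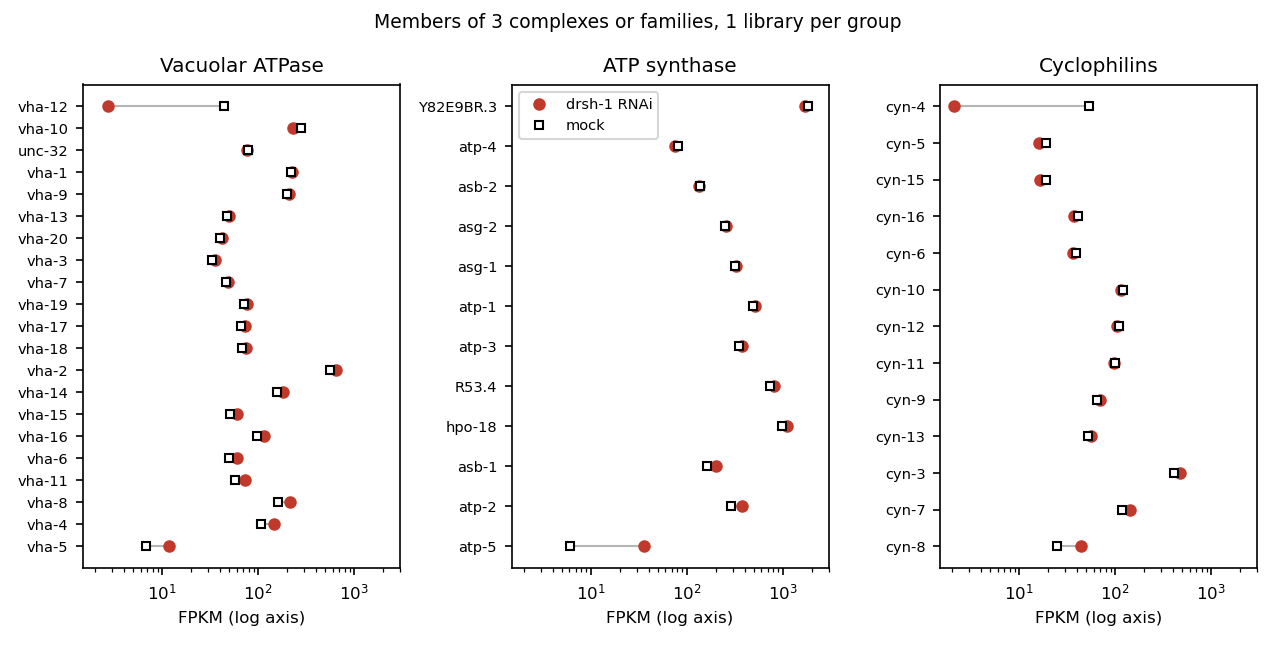
FPKM (log axes) in drsh-1 RNAi (red circles) and mock (open squares), 1 library each, for the listed subunits of the vacuolar ATPase and the ATP synthase and for cyclophilins, ordered by log2 ratio with the lowest on top. vha-12 and cyn-4 are the 1 member of their panels far to the left in drsh-1 RNAi, and atp-5 is the 1 synthase subunit near 6 FPKM in mock.

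Yolk genes and the metabolic lists of this paragraph were more often above mock. The yolk list had 5 of 5 genes above mock, 3 past 2-fold, and a median of 1.51. vit-4 was at 326 FPKM in drsh-1 RNAi, 1030 in dcr-1 RNAi and 76.4 in mock (2.08). vit-2 was at 1250 FPKM in drsh-1 RNAi, 147 in dcr-1 RNAi and 1165 in mock (0.10), and near-identical yolk genes share reads. Of 18 genes of propionate breakdown and the vitamin B12 response 16 were above mock, with a median of 0.34. acdh-1, the acyl-CoA dehydrogenase that starts the propionate shunt used when vitamin B12 is low, was at 319 FPKM in drsh-1 RNAi, 703 in dcr-1 RNAi and 47.2 in mock (2.73). hphd-1, a later enzyme of the shunt, was at 52.2 FPKM in drsh-1 RNAi and 26.5 FPKM in mock (0.95). Against the 23.03 FPKM of mock in the dcr-1 table the ratio of hphd-1 was 1.15, past 2-fold, whereas with the mock values of this table acdh-1 was the single member past it. mce-1, of the B12-dependent route, was at 153 FPKM in drsh-1 RNAi and 155 FPKM in mock. The methionine cycle and phosphocholine list had a median of 0.11 over 14 genes and 0 at least 2-fold apart, with cth-2 (0.69) and the S-adenosylmethionine synthetase gene sams-1 (0.55) the farthest. The 53 respiratory chain and citric acid cycle genes had a median of 0.05, a value that changes sign under a common sum, with 41 above mock and 0 at least 2-fold apart, suca-1 (0.45) and sdha-2 (0.37) being the farthest. Their median level in mock was 108 FPKM, and of all genes at a mean of 100 to 500 FPKM 796 of 1280 were above mock.

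Fatty acid and lipid genes had a median of 0.30, with 46 of 61 above mock, 1 at least 2-fold higher and 2 lower. The desaturase gene fat-7 was at 7.19 FPKM in drsh-1 RNAi and 2.14 FPKM in mock (1.39), a low gene, while fat-6, a desaturase of the same step, was at 78.8 FPKM in drsh-1 RNAi and 131 FPKM in mock. The lipase gene lipl-2 was at 71.4 FPKM in drsh-1 RNAi, 5.69 in dcr-1 RNAi and 199 in mock (-1.47), and far-7, a fatty acid and retinol binding protein gene, was at 42.0 FPKM in drsh-1 RNAi, 17.3 in dcr-1 RNAi and 115 in mock (-1.43). Intestinal cathepsins and other proteases had a median of 0.13 over 20 genes and 0 at least 2-fold apart. cpr-1, a cathepsin B-like gene, had the lowest ratio of these at 593 FPKM in drsh-1 RNAi and 1030 FPKM in mock (-0.80), and cpl-1, a cathepsin L gene, was the highest (0.66). Intestine markers ran from -0.58 to 0.94 over 7 of 8 listed.

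Stress genes tied to the insulin pathway were more often below mock. Of 33 metallothionein and DAF-16 pathway genes 11 were above mock, 22 below, 1 higher and 5 lower by at least 2-fold, with a median of -0.15. hsp-12.3, a small heat shock gene, was at 79.4 FPKM in drsh-1 RNAi, 20.4 in dcr-1 RNAi and 364 in mock (-2.18). Its neighbour hsp-12.6 was at 4.73 FPKM in drsh-1 RNAi and 15.96 FPKM in mock (-1.57). sodh-1, an alcohol dehydrogenase gene, was at 228 FPKM in drsh-1 RNAi, 27.0 in dcr-1 RNAi and 661 in mock (-1.53), and mtl-1, a metallothionein gene, was at 259 FPKM in drsh-1 RNAi, 43.2 in dcr-1 RNAi and 703 in mock (-1.44). The member on the other side was ftn-2, a ferritin gene, at 26.2 FPKM in drsh-1 RNAi, 29.8 in dcr-1 RNAi and 7.07 in mock (1.75). The other 55 of 57 heat shock and chaperone genes were within 2-fold, and the list had a median of -0.01. Among 14 alcohol and aldehyde dehydrogenases sodh-1 was the single member past 2-fold, with alh-9 (0.87) the farthest on the higher side.

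Of the defence and detoxification lists, the galectins had the highest median, and single members of the others stood far from mock. Of 63 antimicrobial peptide, lysozyme and saposin-like genes 6 (9.52%) were at least 2-fold higher and 1 lower, with a median of 0.11. irg-8, an infection response gene listed as ZK6.11, was at 104 FPKM in drsh-1 RNAi, 283 in dcr-1 RNAi and 20.4 in mock (2.30). lys-1, a lysozyme gene, was at 115 FPKM in drsh-1 RNAi, 90.5 in dcr-1 RNAi and 49.5 in mock (1.20). spp-8, a saposin-like gene, was at 113 FPKM in drsh-1 RNAi, 48.1 in dcr-1 RNAi and 317 in mock (-1.48). Of 64 C-type lectins 1 was at least 2-fold higher, clec-265 (1.14), and 4 were lower. clec-266 was at 483 FPKM in drsh-1 RNAi, 418 in dcr-1 RNAi and 1179 in mock (-1.29), the second largest loss in FPKM of the table, and clec-60, clec-196 and clec-55 were the others. Of 11 galectins, sugar-binding proteins, 10 were above mock and 0 at least 2-fold apart, with a median of 0.38, lec-6 being at 894 FPKM in drsh-1 RNAi and 479 FPKM in mock (0.90). Cytochrome P450, UGT and GST genes had a median of 0.07 over 91, with 4 UGT genes at least 2-fold higher, led by ugt-41 (1.34), and gst-26 (-1.44) lower. Transthyretin-related genes had a median of 0.06 over 43, with ttr-16 (1.63) and ttr-18 (1.55) at least 2-fold higher and ttr-48 lower, at 29.4 FPKM in drsh-1 RNAi, 16.1 in dcr-1 RNAi and 114 in mock (-1.92).

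Linker histone genes, which package chromatin between nucleosomes, were mostly below mock. Of 7 listed, 6 were below mock and 3 at least 2-fold lower, with a median of -0.90. his-24 was at 208 FPKM in drsh-1 RNAi, 141 in dcr-1 RNAi and 505 in mock (-1.27). hil-7 was at 8.95 FPKM in drsh-1 RNAi, 28.2 in dcr-1 RNAi and 30.2 in mock (-1.65), and hil-3 was at 63.0 FPKM in drsh-1 RNAi, 58.1 in dcr-1 RNAi and 135 in mock (-1.09). hil-4 (0.04) was the 1 above mock, and under a common sum of FPKM it was below (-0.03). Core histones, whose copies are near-identical and mostly lack polyA tails, had a median of -0.01 over 17, with his-60 (-1.35) the single member past 2-fold. Neuropeptide and insulin-like genes had a median of -0.17, with 34 of 96 above mock, 0 at least 2-fold higher and 4 lower, namely ins-2 at 3.83 FPKM in drsh-1 RNAi, 16.1 in dcr-1 RNAi and 27.3 in mock (-2.55), nlp-39 (-2.01), nlp-70 (-1.19) and nlp-17 (-1.02).

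In 20 of the 47 lists, which hold 770 listed members, no gene was at least 2-fold apart, and in 28 lists the median was within 0.1 of 0. Mitochondrial ribosomal proteins were mostly below mock, 56 of 67 with a median of -0.13, the lowest being mrps-2 (-0.63) and mrpl-1 (-0.60). Cytosolic ribosomal proteins had a median of 0.02 over 81, with rpl-25.1 (-0.65) and rpl-26 (-0.47) the farthest. The 12 mitochondrially encoded genes had a median of -0.00. Of 111 nuclear hormone receptors 43 were above mock and 68 below, with a median of -0.07, nhr-168, at 2.29 FPKM in drsh-1 RNAi and 5.58 FPKM in mock, and sex-1 (-0.93) being the farthest. Sex determination genes had 6 of 21 above mock, with sex-1 and sea-1 (0.53), which signal the X to autosome ratio, the farthest. Cell cycle genes had a median of 0.04 over 56, with cki-1 the single member past 2-fold and cdc-25.2 (-0.56) next. Muscle genes had a median of 0.06 over 39, with the troponin genes tnc-2 (-0.91) and tni-3 (-0.65) the farthest. Medians were -0.02 for 60 translation factors and tRNA synthetases (farthest iff-2 at -0.83 and prs-2 at -0.75), -0.04 for 57 Rab, Arf and vesicle trafficking genes (snx-14 at 0.93 and vps-50 at -0.66), -0.06 for 14 neuronal genes (ida-1 at -0.65 and unc-119 at -0.52) and -0.11 for 5 eIF4E cap-binding genes (ife-4 at -0.50 and ife-5 at -0.39).

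**Figure D4:**
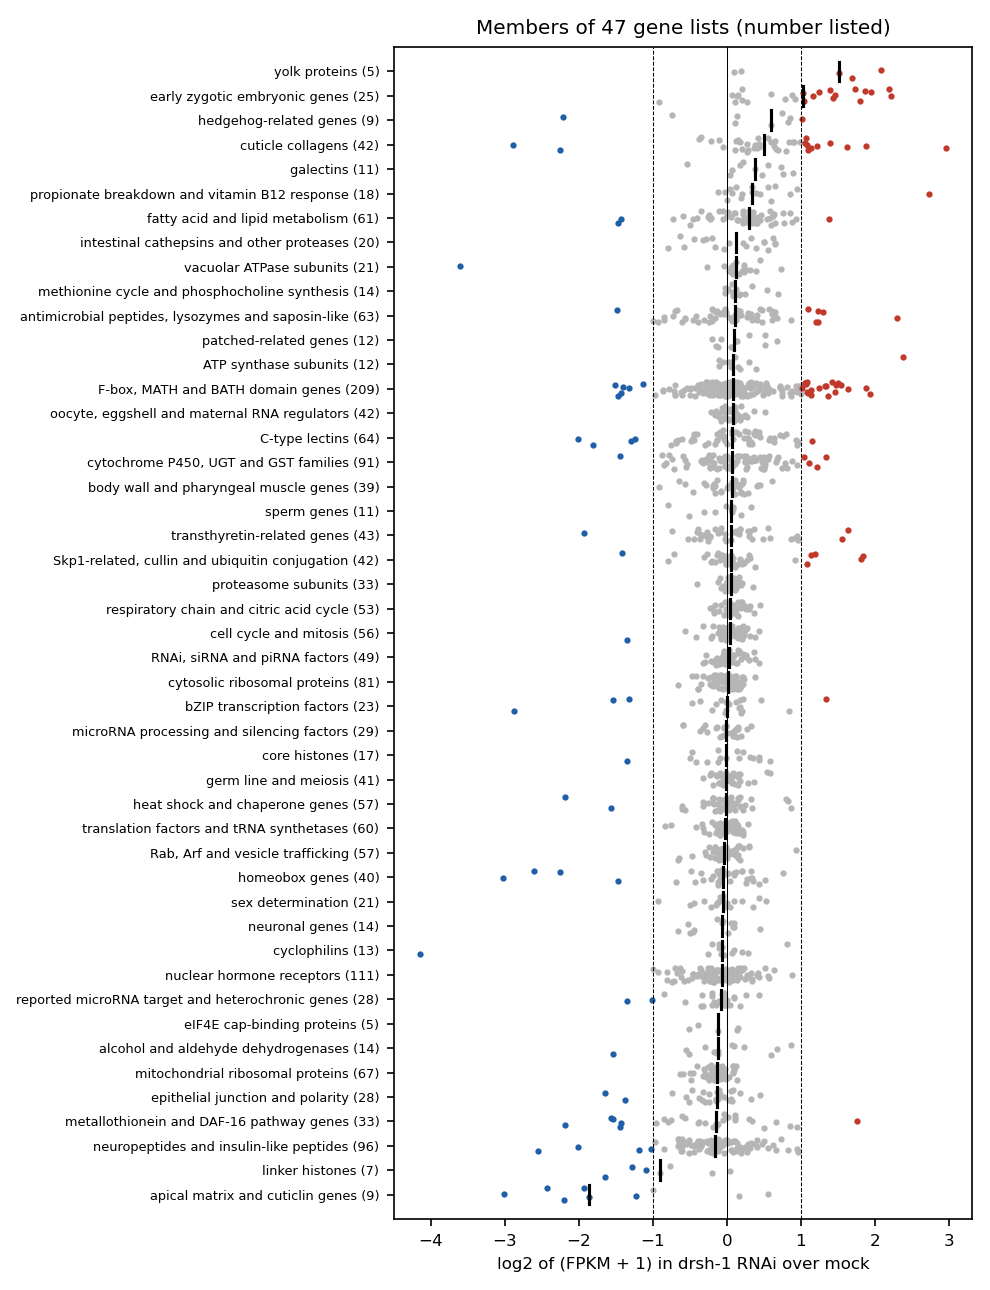
Log2 ratio of (FPKM + 1) in drsh-1 RNAi over mock for each listed member of 47 gene lists, with the number of listed members in brackets, black bars at list medians and dashed lines at 2-fold; red and blue points are members at least 2-fold higher and lower. Medians run from -1.86 for apical matrix and cuticlin genes to 1.51 for yolk proteins, and most lists are centred on 0. The apical matrix and cuticlin list was drawn up with the lowest ratios known, so its place follows in part from that choice.

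Among the 15 highest ratios not yet described, K06G5.1 was at 69.0 FPKM in drsh-1 RNAi, 35.0 in dcr-1 RNAi and 5.15 in mock (3.51), and F46F2.3 was at 52.8 FPKM in drsh-1 RNAi, 483 in dcr-1 RNAi and 5.25 in mock (3.11). Y5H2B.3 (2.57), B0024.4 (2.48) and F58G6.3 (2.32) followed. swt-6, listed as R10D12.9, of the SWEET sugar transporter family, was at 26.7 FPKM in drsh-1 RNAi, 34.2 in dcr-1 RNAi and 4.42 in mock (2.36). folt-2, of the folate transporter family, was at 19.6 FPKM in drsh-1 RNAi, 54.03 in dcr-1 RNAi and 3.41 in mock (2.22). The lowest ratios not yet described were those of W02D7.11 at 3.31 FPKM in drsh-1 RNAi, 2.89 in dcr-1 RNAi and 29.2 in mock (-2.81), K06A4.7 (-2.28) and C05B5.4 (-2.26).

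In absolute level 1 gene dominated. T07A5.5 (ostf-4) was at 15288 FPKM in drsh-1 RNAi, 7370 in dcr-1 RNAi and 3859 in mock (1.99), and made up 2.15% of all listed FPKM in drsh-1 RNAi against 0.572% in mock. Its gain equals 32.9% of the difference between the 2 libraries' summed FPKM, which came to 709653 in drsh-1 RNAi and 674897 in mock. The annotated transcript of T07A5.5 is 108 bases long, and FPKM of transcripts about as short as a sequenced fragment is poorly determined. Without it the sums were 694364 FPKM in drsh-1 RNAi and 671038 FPKM in mock. Other large gains were those of dct-16 at 1614 FPKM in drsh-1 RNAi and 998 FPKM in mock (0.69), ule-5, listed as Y62H9A.6, at 1094 FPKM in drsh-1 RNAi and 529 FPKM in mock (1.05), and its neighbour Y62H9A.5 at 1046 FPKM in drsh-1 RNAi and 540 FPKM in mock (0.95). The largest losses were those of F53A9.8 at 743 FPKM in drsh-1 RNAi, 221 in dcr-1 RNAi and 1752 in mock (-1.24), clec-266 and tts-1, then F56H9.2 at 571 FPKM in drsh-1 RNAi and 1222 FPKM in mock (-1.10).

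Higher and lower genes were spread unequally over gene length. With genes split into 4 classes of about equal size by annotated 3′ UTR length, from shortest to longest, 3.16%, 2.09%, 1.47% and 0.345% of genes were at least 2-fold higher in drsh-1 RNAi, and 1.75%, 1.30%, 1.21% and 1.72% were at least 2-fold lower. By spliced transcript length the shares were 3.04%, 2.88%, 1.42% and 0.543% for the higher side and 2.13%, 1.59%, 1.38% and 1.29% for the lower. The higher side thus thinned out with length and the lower side did not to the same degree. The medians of the 3′ UTR classes were 0.01, -0.00, 0.01 and -0.01, so the bulk of genes did not shift. Genes differ in level, family and transcript number between these classes, and the part of each was not tested. By level, the share at least 2-fold higher was 1.02% at a mean of 2 to 5 FPKM, 4.73% at 5 to 10, 3.1995% at 10 to 20, 1.12% at 20 to 50, 0.861% at 50 to 100, 1.02% at 100 to 500 and 2.33% at 500 FPKM or more. The share at least 2-fold lower was 1.09%, 3.81%, 2.26%, 1.45%, 0.574%, 0.469% and 1.74% in the same classes. Both shares were highest at 5 to 10 FPKM, and the top class holds 172 genes. Genes of the 2 to 5 class have little room to reach 2-fold, since both values must be at least 2 FPKM and 1 FPKM is added. The low shares of that class follow in part from this limit. Chromosome II had 2.97% of its listed genes at least 2-fold higher, chromosome V had 2.67% and chromosome I had 0.884%.

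**Figure D5:**
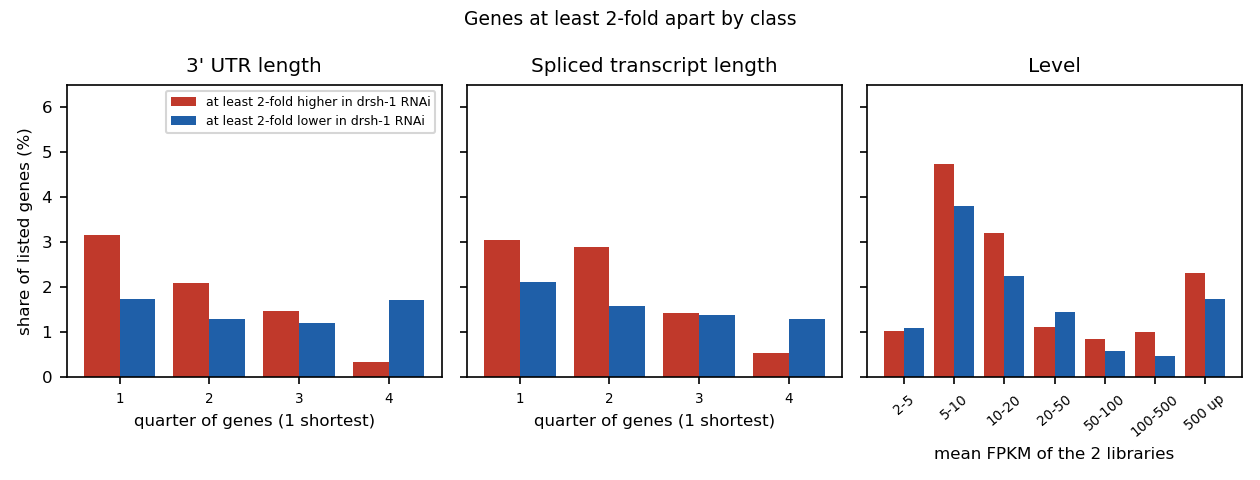
Share of listed genes (percent) at least 2-fold higher (red) or lower (blue) in drsh-1 RNAi than in mock by class of annotated 3′ UTR length, of spliced length (4 classes each) and of mean FPKM. The red bars shrink from 3.16% to 0.345% from the shortest to the longest 3′ UTRs while the blue bars stay between 1.21% and 1.75%.

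Of 5804 adjacent pairs with both genes listed, 12 had both members higher and 3 had both lower by at least 2-fold. Of all listed genes 1.91% were higher and 1.59% lower by as much. Whether neighbours go together more often than other genes was not tested. The pairs included the families above (fbxb-42 and fbxb-44, skr-13 and skr-9, col-159 and col-160, vit-4 and vit-3, hsp-12.3 and hsp-12.6), where shared reads can link neighbours. dsl-1 (1.52) and dsl-2 (1.72), neighbouring genes of the Delta and Serrate ligand family, and Y47D3A.13 (1.60), next to tbx-37, were other higher ones. Listed for dcr-1 RNAi only, and so without a value here, were 172 genes, of which 12 reached 10 FPKM in mock, among them the splicing factor gene lsm-8 and the cuticle gene dpy-17, and the reason for their absence was not tested.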

How the data were processed

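PolyA RNA of 3 libraries (drsh-1 RNAi, dcr-1 RNAi, mock) was extracted with TRIzol and sequenced on the HiSeq2000 after TruSeq preparation, per the labels. TopHat2 2.06, Cufflinks, Cuffdiff 2.1.1, SAMtools and CASAVA 1.8.2 were used, per the submitters' processing notes, which give no roles. No coordinates are printed, as the authors' genome build is not given in the sources used here. The authors deposited FPKM values per gene for mock and for the RNAi library, with their log2 ratio, in 1 table per RNAi target. The deposited log2 value equals that computed here from (FPKM + 1) to within 5.0e-12. The columns have no header. Mock was taken as the column shared by both tables and the denominator of that ratio, and the RNAi library from the table's name. Read depth is unknown, so no interval from counting error is given.

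Python 3.11.15, numpy 2.4.6 and pandas 2.3.3 were used. Counting at 2-fold was run on simulated ratios without noise, which checks the arithmetic alone and not the counts reported here. Both tables gave the same mock value for 9043 of 9459 shared genes, and dcr-1 RNAi values are given only for such genes. Names, lengths and microRNA positions came from Ensembl release 115, matching 9581 genes (95.8%). Members and lists were chosen with earlier results of these data known. Named genes were dcr-1, drsh-1, pash-1, lin-14, lin-28, lin-41, alg-1 and alg-2, the 15 highest and 15 lowest ratios at a mean of 5 FPKM or more, the 10 largest gains and losses in FPKM, and up to 5 members per side at least 2-fold apart in each list (otherwise the 2 farthest). Other genes named were chosen after their values were seen. The alternatives were another pseudocount, a minimum level, rescaling, equal mock values only, the mock value of the other table and a minimum transcript length.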

Additional observations from a re-analysis of the deposited data

How the results depend on the processing

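With a pseudocount of 5 FPKM, 99 genes were higher and 89 lower by at least 2-fold, and 8 of the early zygotic genes were higher by as much, since a larger pseudocount shrinks the ratios of low genes. The other alternatives were a pseudocount of 0.1 FPKM, a mean of at least 5 FPKM, centring on the median, a common upper quartile, equal mock values only and, chosen after seeing the data, a common sum of FPKM, spliced lengths of at least 500 bases and the mock value of the dcr-1 table where it differs. Of the 169 genes that the naming rule took, lin-41 changed direction with the mock value of the dcr-1 table and none did under the others, where equal mock values covered 155 of the 169, the mean of 5 FPKM 160 and the minimum length 145. Genes named outside the rule were not followed through the alternatives, and hil-4 and ppfr-1, both at 0.04, were at -0.03 under the common sum. Of 108 named genes at least 2-fold apart, 91 stayed so with 5 FPKM added, 105 with a common sum and 107 with the mock value of the dcr-1 table, zip-8 being the 1 that did not. With that mock value 233 genes were higher and 161 lower by at least 2-fold, and 17 of 47 lists, against 20 as reported, had no gene that far apart. Under the common sum the median of all genes was -0.07 and 10 of 47 list medians changed sign, the largest of them 0.06 as reported. Seed-match alternatives were not run, since microRNA and 3′ UTR sequences were not used here. Leaving out a replicate was not possible with 1 library per group. No paired analysis was possible because each group has 1 library and the result comes from no test.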
